A study of Mus musculus with 3 samples.

Results

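The killer cell receptors and their adaptors are 9 genes whose proteins let natural killer (NK) cells and some T cells sense stressed, infected or altered cells. They were found by gene name among the 55536 genes of the GENCODE M21 tables, and all 9 had an entry. Of these, 7 encode receptors (Klrk1, Klrd1, Klrc1, Klre1, Klrb1c, Ncr1 and Cd160) and 2 encode signalling adaptors (Tyrobp and Fcer1g). The genes were measured in regulatory T cells (Tregs), a class of CD4 T cells that holds other immune cells in check and is defined by the factor Foxp3. The question was whether the 9 genes are high in the same library, as RNA from killer cells collected along with the Tregs would make them.

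The cells were primary Tregs from male adults of the strain Foxp3CreERT2 x Rosa26YFP, aged 6 months, described as having been through inflammation. In such a strain the Foxp3 locus drives a Cre recombinase that acts when an estrogen receptor ligand is given, and a Cre-activated YFP at Rosa26 then marks the cell. The inflammatory stimulus, the sort and the number of animals are not stated in these labels. There was 1 group, with 1 biological replicate and 3 technical replicates, and library 1, 2 and 3 are named after their technical replicate numbers. Where in the protocol the technical replicates split is not stated, so the p-values measure the spread between these libraries against counting noise and may reflect technical differences. Polyadenylated RNA was sequenced, with gene totals of 11829362, 14136014 and 10667644 estimated counts. The Treg and T cell markers were present, with Foxp3 at 18.0, 14.2 and 16.0 TPM and Cd4 at 414, 355 and 369 TPM in libraries 1, 2 and 3. Of the 9 markers 8 differed between the libraries (4 without library 2), against 45.7% of all genes tested (30.7% without library 2). The 8 did not share 1 direction: 3 were highest in library 1, 2 in library 2 and 3 in library 3. Il2ra, Ctla4 and Ikzf2 passed and were lowest in library 2, by -0.52, -0.46 and -0.21 in log2 CPM against the mean of the others, and Foxp3, which did not pass, was at -0.21. Cd3e and Cd3d passed with library 2 highest, at 0.05 and 0.11, and Cd3g and Trac passed with library 3 highest.

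Killer cells weigh activating against inhibitory receptors. Most of these receptors have short tails and signal through partner proteins: Tyrobp (DAP12) and Fcer1g (the Fc receptor gamma chain) carry tyrosine motifs that recruit Syk-family kinases, while Hcst (DAP10) recruits other enzymes. Several of the receptors lie side by side in a stretch of chromosome 6 known as the NK gene complex. Neither adaptor is specific to killer cells, since macrophages, monocytes, granulocytes and mast cells use them heavily. Some of the receptors also appear on CD8 and other activated T cells.

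Cd160 was the most abundant of the 7 receptors in each library. Cd160 (ENSMUSG00000038304.14, chromosome 3, 96798763 to 96829351, minus strand, mm10) encodes a lipid-anchored receptor that binds the herpesvirus entry mediator Tnfrsf14. Its TPM (a level per library that is corrected for transcript length) was 36.6 in library 1, 59.7 in library 2 and 44.2 in library 3, which is 46.8 ± 11.8 TPM (SD, n = 3). These rested on 380, 756 and 452 counts. The order was library 2, then 3, then 1. In CPM after TMM scaling of the library sizes, Cd160 in library 2 was 1.70 times that in library 1 (95% counting interval 1.50 to 1.92) and 1.33 times that in library 3 (1.18 to 1.50). The difference between the libraries passed the test (Poisson chi-square, adjusted p = 7.72e-16). Cd160 overlaps Pdzk1 on the opposite strand, which had 6, 3 and 5 counts.

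The Cd160 reads were assigned mostly to 1 transcript that starts inside the gene. Cd160-201 took 94.5%, 93.5% and 88.7% of the gene's TPM in libraries 1, 2 and 3. Cd160-203, which starts at the upstream end of the gene, took 5.52%, 6.52% and 4.44%. Cd160-202, from the same upstream start, was at 0 in libraries 1 and 2 and took 6.86% in library 3, on 63.9 estimated counts. The rise of the gene in library 2 lay mostly in Cd160-201, which went from 34.6 and 39.2 TPM in libraries 1 and 3 to 55.8 TPM in library 2.

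**Figure D1:**
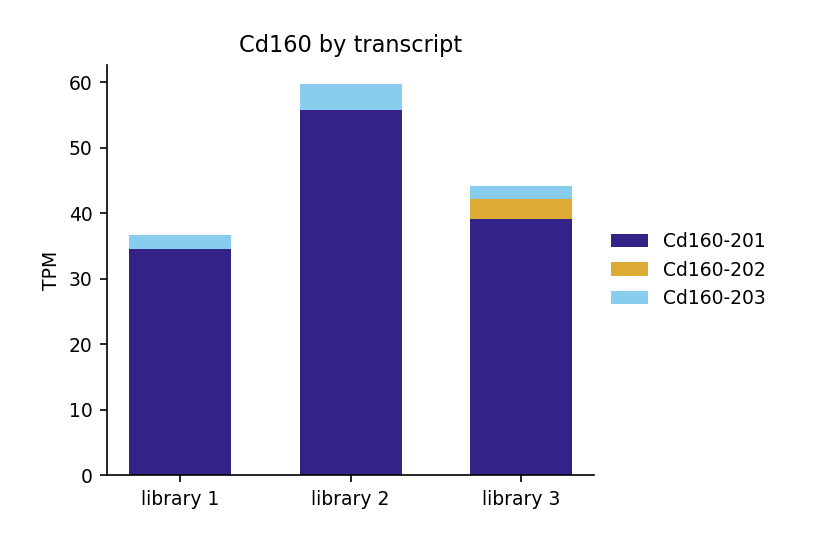
Bars show the TPM of Cd160 in each library, stacked by annotated transcript. Cd160-201 makes up most of each bar, and library 2 has the tallest bar, at 59.7 TPM.

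The sequences at both Cd160 starts are shown because the transcript shares separate them. The first window, chr3:96814472-96814771, surrounds the start of Cd160-201. The second, chr3:96829302-96829601, surrounds the start of Cd160-202 and Cd160-203. Each is on the minus strand of GRCm38.p6, runs from 250 bases before the RefSeq start to 50 bases after it, and reads 5′ to 3′. Capitals mark TGTGGT or its reverse complement ACCACA, a core motif bound by RUNX transcription factors.
Cd160, internal start: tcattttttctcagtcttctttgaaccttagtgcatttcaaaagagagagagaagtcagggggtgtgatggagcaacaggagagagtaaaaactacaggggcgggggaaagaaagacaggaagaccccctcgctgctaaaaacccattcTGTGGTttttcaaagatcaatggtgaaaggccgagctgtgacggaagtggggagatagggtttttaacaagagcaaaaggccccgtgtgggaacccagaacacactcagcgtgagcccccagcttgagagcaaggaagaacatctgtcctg
Cd160, upstream start: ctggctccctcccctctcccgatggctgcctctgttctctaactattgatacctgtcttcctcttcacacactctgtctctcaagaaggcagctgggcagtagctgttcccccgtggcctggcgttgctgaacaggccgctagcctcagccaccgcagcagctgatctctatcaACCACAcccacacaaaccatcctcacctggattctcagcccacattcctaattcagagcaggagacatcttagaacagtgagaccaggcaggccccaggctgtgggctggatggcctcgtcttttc
The motif begins at position -101 in the internal window and at position -76 in the upstream window, counting the first transcribed base as position 1. Another pair of motifs was searched on both strands. The ETS core GGAAGT and the T-box half-site GGTGTGA were each present in the internal window and in neither orientation in the upstream one, and neither overlaps TGTGGT there.

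The CD94/NKG2 genes were low, and did not share 1 pattern. Klrd1 encodes CD94, the common partner chain. Klrc1 encodes NKG2A, which joins CD94 to form an inhibitory receptor for the nonclassical MHC molecule encoded by H2-T23. Klrd1 (ENSMUSG00000030165.16, chromosome 6, 129591782 to 129598775) stood at 2.57, 6.19 and 2.71 TPM in libraries 1, 2 and 3, from 16, 44 and 19 counts. Klrc1 (ENSMUSG00000030167.15, chromosome 6, 129666015 to 129678973) stood at 2.68, 3.78 and 9.27 TPM, from 47, 79 and 107 counts. So the partner chain was highest in library 2 and NKG2A in library 3.

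Both differences between libraries passed the Poisson chi-square test, with an adjusted p of 0.0110 for Klrd1 and 1.62e-06 for Klrc1. Klrd1 in library 2 was 2.34 times its library 1 value (1.30 to 4.45) and 1.84 times its library 3 value (1.05 to 3.34). Klrd1 rested on library 2 together with library 1, since without library 1 its adjusted p was 0.0690 and without library 2 it was 0.641. Klrc1 in library 3 was 2.44 times its library 1 value (1.71 to 3.51), and in library 2 it was 0.588 times its library 3 value (0.434 to 0.793). Without library 3, Klrc1 did not pass (adjusted p = 0.154, Poisson chi-square). Part of the library 3 level of Klrc1 came from Klrc1-203, which took 34.8% of the gene's TPM there on 17.0 estimated counts, against 0% in library 1 and 0.98% in library 2. Klrc1 also has close relatives: Klrc2, an activating partner of CD94, had 14, 10 and 21 counts and did not pass (adjusted p = 0.0623), and Klrc3 had 0, 0 and 1. The posterior SD of the Klrc1 counts was 2.05 to 2.89 reads, so by this measure little of the count was uncertain between copies. The whole-number tables gave Klrc1 only 8, 22 and 30 counts, and Klrc2 0, 1 and 3. Klrc1 passed there too, with library 3 highest (Poisson chi-square, adjusted p = 0.00607).

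Klrk1 was steady. It encodes NKG2D, an activating receptor for stress-induced ligands (ENSMUSG00000030149.15, chromosome 6, 129610323 to 129623864). Its level was 2.28, 2.49 and 2.60 TPM in libraries 1, 2 and 3, or 2.46 ± 0.163 TPM (SD, n = 3), on 28, 39 and 30 counts. Its difference between libraries did not pass (Poisson chi-square, adjusted p = 0.824). The library 2 to library 1 ratio was 1.19, with an interval from 0.712 to 2.00, which leaves room for a rise of up to that size at this depth. Which Klrk1 transcript was used could not be read from so few counts: Klrk1-201 took 0%, 53.6% and 67.2% in the 3 libraries, and Klrk1-202 52.0%, 24.6% and 0%.

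Klre1 and Ncr1 were near the detection limit. Klre1 encodes a lectin-like receptor that pairs with the products of Klri1 and Klri2, and had 1, 3 and 1 counts (0.09, 0.18 and 0.10 TPM). Klri1 had 0, 5 and 5 counts and Klri2 had 0, 1 and 10. Ncr1 encodes NKp46, a receptor used to define NK cells across species, and had 6, 4 and 2 counts (0.47, 0.26 and 0.17 TPM). Both fell under the mean count of 10 needed for a test. The library with the highest Ncr1 level was library 1, and the ratio of library 2 to library 1 was 0.568, with a counting interval from 0.118 to 2.40.

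Klrb1c was highest in library 3 and lowest in library 2. It belongs to the NKR-P1 lectin family and is another marker of mouse NK cells (ENSMUSG00000030325.16, chromosome 6, 128778485 to 128789215). It had 9, 5 and 28 counts, which gave 0.56, 0.26 and 1.67 TPM. The difference passed (Poisson chi-square, adjusted p = 7.08e-06), with library 3 at 3.33 times library 1 (1.53 to 8.02) and library 2 at 0.142 times library 3 (0.0429 to 0.373). The call rests on few reads and is uncertain: the whole-number tables gave Klrb1c 3, 1 and 4 counts, too few for a test. The posterior SD of its estimated counts was 0.91, 0.50 and 1.11 reads. With that variance added, Klrb1c still passed (Poisson chi-square, adjusted p = 1.89e-05). Without library 3, its estimated counts were too few for a test as well. Klrb1c also overlaps Gm44511, a gene model on the same strand, with 0, 2 and 0 counts. Its library 2 to library 1 ratio was 0.474 (0.125 to 1.57), so those libraries were not separated. Klrb1c and Ncr1 together had 15, 9 and 30 counts, a sum carried by Klrb1c, while Ncr1 itself was lowest in library 3.

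**Figure D2:**
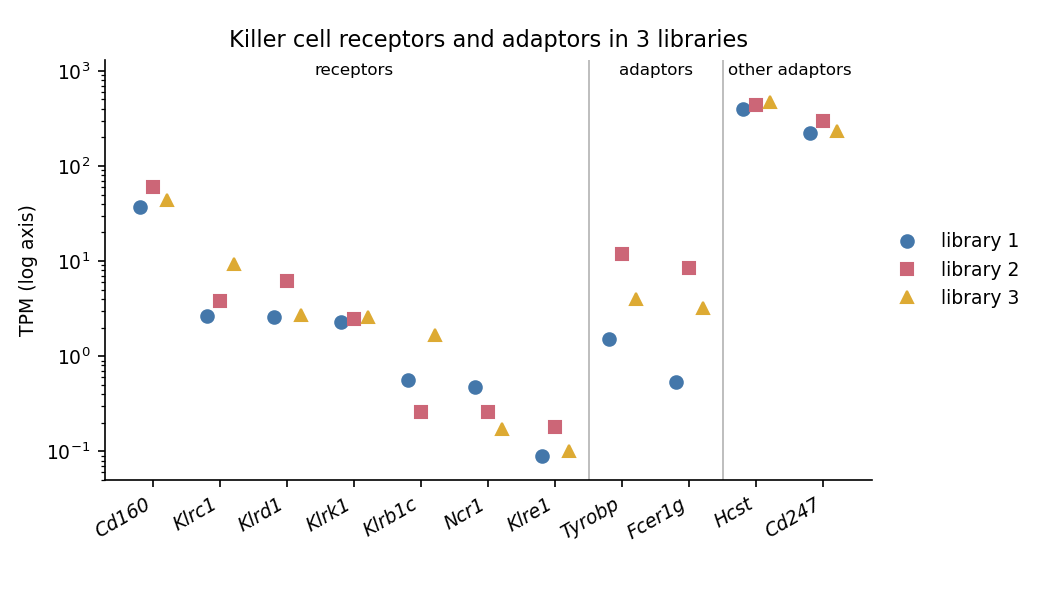
Each point is the TPM of a gene in 1 library, on a log axis. Cd160 stands between 36.6 and 59.7 TPM, the other receptors stand under 10 TPM, and Tyrobp and Fcer1g are spread widely with library 2 on top. Hcst and Cd247 are other adaptors, given for comparison.

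The promoter windows of Klrk1, Ncr1 and Fcer1g show what the receptors and an adaptor have in common with Cd160. The Klrk1 window (chr6:129623815-129624114, minus strand) lies at the start of Klrk1-205. The Ncr1 window (chr7:4337474-4337773, plus strand) lies at the start of Ncr1-201. The Fcer1g window (chr1:171234300-171234599, minus strand) lies at a RefSeq start that none of the GENCODE transcripts of Fcer1g shares exactly. The sequences are RefSeq's on GRCm38.p6, with the same motif in capitals.
Klrk1: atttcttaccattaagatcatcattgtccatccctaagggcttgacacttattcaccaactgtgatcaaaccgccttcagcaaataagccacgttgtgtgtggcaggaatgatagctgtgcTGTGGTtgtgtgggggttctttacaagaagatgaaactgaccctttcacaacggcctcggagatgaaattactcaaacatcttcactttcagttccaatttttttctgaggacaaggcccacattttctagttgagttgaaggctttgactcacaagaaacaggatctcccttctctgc
Ncr1: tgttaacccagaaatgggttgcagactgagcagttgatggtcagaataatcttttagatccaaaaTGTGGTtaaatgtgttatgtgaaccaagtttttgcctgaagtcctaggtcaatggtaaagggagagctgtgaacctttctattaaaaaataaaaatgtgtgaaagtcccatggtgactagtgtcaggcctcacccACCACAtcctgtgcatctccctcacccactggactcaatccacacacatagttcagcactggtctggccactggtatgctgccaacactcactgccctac
Fcer1g: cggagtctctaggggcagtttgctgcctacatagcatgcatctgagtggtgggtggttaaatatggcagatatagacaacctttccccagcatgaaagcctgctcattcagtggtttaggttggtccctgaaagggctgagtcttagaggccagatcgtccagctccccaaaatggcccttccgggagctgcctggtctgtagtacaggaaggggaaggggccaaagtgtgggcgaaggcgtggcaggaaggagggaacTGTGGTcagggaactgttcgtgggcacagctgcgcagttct
RefSeq windows were matched for 7 of the 9 genes, with 10 windows in all. TGTGGT or ACCACA was in 9 of these 10 windows and in at least 1 window of all 7 genes. Over all genes with a window of the same length, 18.9% had it (5113 of 27025), and over all windows 16.8%. The 9 windows include those of Cd160, read before the motif was chosen, and 2 overlapping Ncr1 windows with the same sites. They are thus not a like comparison with these shares. GGAAGT was in the windows of 2 of the 7 genes, Cd160 and Klrb1c, against 26.5% of all genes. GGTGTGA was in those of Cd160 alone, against 4.60% of all genes. In Fcer1g the capitals begin at position 10, after the start, while in Klrk1 they begin at position -129 and in Ncr1 at -185 and -50. The matches describe letters in these windows, and the motifs were chosen after the Cd160 windows had been read.

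Both adaptors differed widely between the libraries. Tyrobp (ENSMUSG00000030579.10, chromosome 7, 30413760 to 30417585) stood at 1.50, 11.9 and 3.98 TPM in libraries 1, 2 and 3, from 7, 67 and 17 counts. Fcer1g (ENSMUSG00000058715.11, chromosome 1, 171229572 to 171234365) stood at 0.53, 8.54 and 3.21 TPM, from 3, 57 and 15 counts. Both were highest in library 2, intermediate in library 3 and lowest in library 1.

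Tyrobp in library 2 was 8.16 times its library 1 value (95% counting interval 3.75 to 21.1) and 3.14 times its library 3 value (1.82 to 5.70). Fcer1g in library 2 was 16.2 times its library 1 value (5.27 to 80.9), where 3 counts were found, and 3.02 times its library 3 value (1.69 to 5.75). Both passed the Poisson chi-square test, with adjusted p = 7.80e-11 for Tyrobp and 1.85e-10 for Fcer1g. Without library 2, Tyrobp did not pass (Poisson chi-square, adjusted p = 0.0778), and Fcer1g had too few counts for a test. The library 2 to library 1 intervals of both adaptors lie above those of Cd160, Klrk1, Klrc1 and Klrb1c. That of Tyrobp overlaps the interval of Klrd1, and both overlap the wide one of Klre1 (0.205 to 134). The difference between the genes was not tested.

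The adaptors that T cells use were far more abundant and differed by smaller ratios. Hcst, the NKG2D partner, lies 126 bases from the end of Tyrobp on chromosome 7. It stood at 393, 439 and 476 TPM, from 1388, 1877 and 1539 counts, and was highest in library 3 (Poisson chi-square, adjusted p = 2.88e-05). Its library 2 to library 1 ratio was 1.15 (1.07 to 1.24), and its library 2 to library 3 ratio, 0.971 (0.907 to 1.04), did not separate these libraries. Cd247, the CD3 zeta chain, which NK cells share with T cells, stood at 224, 297 and 234 TPM and was highest in library 2 (adjusted p = 2.29e-54, Poisson chi-square). In the whole-number tables neither passed (Poisson chi-square, adjusted p = 0.237 for Hcst and 0.132 for Cd247). Those tables hold fewer counts and smaller differences for some abundant genes. Ccl5 had 613, 655 and 638 counts there, against 6245, 26866 and 9346 estimated counts. A gene that did not pass there may thus still differ. The order of the libraries for Cd247 was that of Tyrobp and Fcer1g.

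Read together, the 9 genes did not share 1 order of the libraries. Of the 7 tested, 6 passed, 4 with library 2 highest (Cd160, Klrd1, Tyrobp and Fcer1g), 2 with library 3 highest (Klrc1 and Klrb1c) and 0 with library 1 highest. Over all 13970 genes tested, 45.7% passed, 15.5% with library 2 highest, 16.2% with library 3 highest and 14.0% with library 1 highest. The median difference of library 2 from the mean of the others, in log2 CPM, was 0.58 over the 7 tested and 0.01 over all genes tested. Over all 9 genes, with the count minimum lowered to 1, the median was 0.29. In the whole-number tables it was 1.00, over only the 6 genes that could be tested there. Klrb1c, Klre1 and Ncr1 were not among these, so the 1.00 is not a like comparison with the other medians. In the estimated counts the difference ranged from -1.19 for Klrb1c to 1.97 for Fcer1g. Without Cd160, 5 genes passed and 3 of them had library 2 highest. Without library 2, 6 could be tested and 3 passed (Klrc1, Klrb1c and Cd160), each with library 3 above library 1, where 30.7% of all genes tested passed. In the whole-number tables of the same libraries, 6 of the 9 could be tested and 5 passed, 4 of them with library 2 highest. There the share of all genes that passed was 21.5%, and 6.65% passed with library 2 highest.

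The receptors as a sum rose less. The 7 receptors held 487, 930 and 639 counts, and after scaling library 2 was 1.63 times library 1. This rests on Cd160: the other 6 receptors held 107, 174 and 187 counts, and after scaling library 2 was 1.39 times library 1 and 0.741 times library 3. In bulk RNA, fewer cells of a type and less RNA per cell cannot be told apart.

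**Figure D3:**
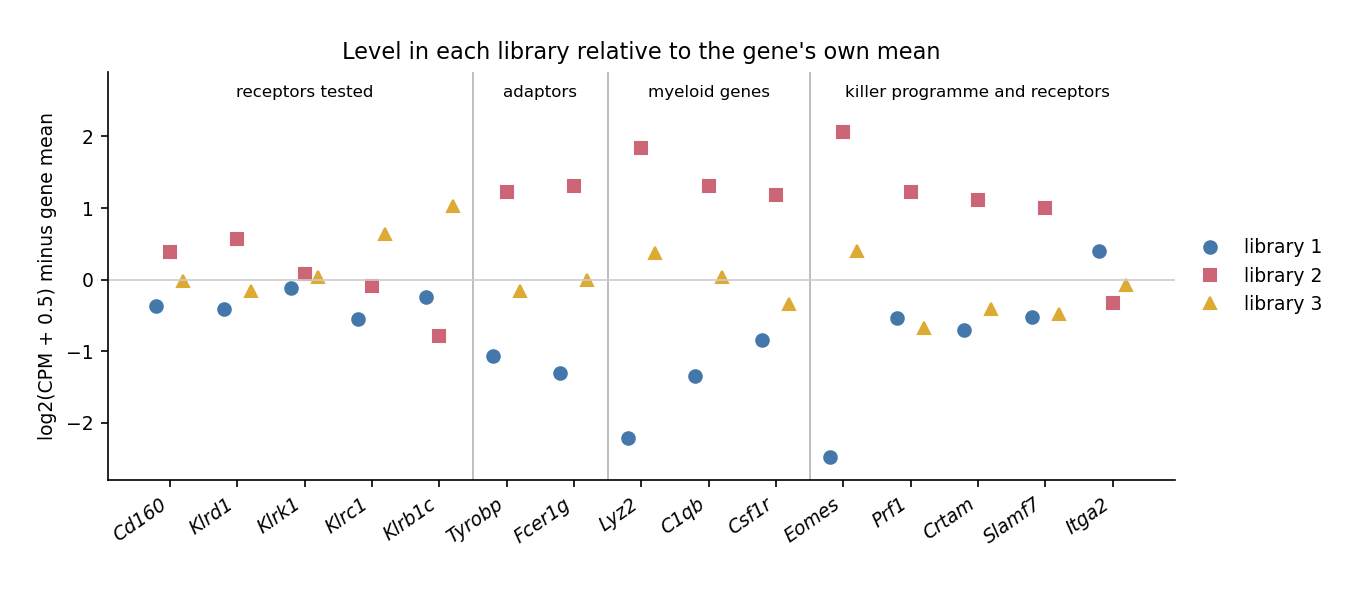
Each point is the log2 level of a gene in 1 library minus the mean of that gene over the 3 libraries, from TMM-scaled CPM. Tyrobp and Fcer1g have the same order of libraries as Lyz2, C1qb and Csf1r. In these genes library 2 lies between 1.78 and 2.77 above the mean of the other libraries. Eomes, Crtam, Slamf7, Cd160, Klrd1 and Klrk1 also have this order, and Prf1 and Itga2 have others. Klrc1 and Klrb1c have library 3 on top. Not all tested myeloid genes share the order of Lyz2. Of those not shown, Cybb, Aif1 and Mpeg1 have library 2, then 1, then 3. Itgam has library 1, then 2, then 3.

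Genes of the killer programme were mostly highest in library 2. Of the 16 on the list, 14 were tested and 13 passed, 10 with library 2 highest, 3 with library 1 highest and 0 with library 3 highest. The shares over all genes tested were 45.7% passing and 15.5% passing with library 2 highest. Without library 2, 9 of the list passed between libraries 1 and 3, against 30.7% of all genes tested. The median difference of library 2 from the others was 0.60 in log2 CPM. Eomes, a T-box factor of NK and CD8 T cells, had 6, 317 and 76 counts in libraries 1, 2 and 3. Prf1 (perforin) had 154, 627 and 130, and the chemokine gene Ccl5 had 6245, 26866 and 9346. Against this, Itga2 (CD49b), a surface marker of NK cells, had 391, 274 and 262 counts and was highest in library 1. S1pr5, which NK cells use to leave tissue, had 2, 0 and 1 counts, and Cma1 was at 0 in all libraries.

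Among other killer cell receptors, 8 of 25 could be tested and 6 passed, 4 with library 2 highest. The shares over all genes tested were 45.7% and 15.5%. Without library 2, 3 passed, against 30.7% of all genes tested. The most abundant on that list, Cd226 and Cd96, adhesion receptors of NK and T cells, stood at 168 ± 2.49 and 152 ± 14.8 TPM (SD, n = 3), both above Cd160. Cd226 was highest in library 1 and Cd96 in library 2, and both passed. Crtam, an adhesion receptor of activated killer and T cells, had 83, 362 and 96 counts. Slamf7 had 273, 935 and 262. Klrg1, a receptor also found on matured effector Tregs, was highest in library 3, at 78.7, 70.6 and 97.3 TPM, and passed (adjusted p = 4.97e-09, Poisson chi-square). The Ly49 (Klra) receptors, which on mouse NK cells bind MHC class I, were low. The 11 measured had 5, 38 and 12 counts together, with at most 13 in any gene and library, and 3 of them were at 0 in all libraries. Fcgr3, the Fc receptor that signals through Fcer1g, had 1, 15 and 0 counts, so it too was highest in library 2.

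Most tested myeloid genes were highest in library 2, as were most tested genes of the killer programme. Of the 23 macrophage, monocyte and granulocyte genes, 10 were tested and 9 passed, all 9 with library 2 highest. Over all genes tested, 45.7% passed, 15.5% with library 2 highest. The count minimum favours genes that are high in 1 library. Adgre1, with 3, 25 and 9 counts, and S100a8, with 0, 28 and 8, reached it only with library 2. Without library 2, 4 of the list passed, against 30.7% of all genes tested. The summed level of the 23 genes was 59.2, 125 and 65.5 TPM in libraries 1, 2 and 3. The median difference of library 2 from the others, over the 10 tested, was 1.44 in log2 CPM. Lyz2 (lysozyme) had 17, 441 and 123 counts, C1qb (complement) 5, 73 and 21, and Csf1r (the receptor for the macrophage growth factor) 15, 93 and 22. Cybb, an oxidase subunit and the most abundant gene of the list, stood at 45.1, 49.2 and 33.0 TPM, with a smaller difference of library 2 from the others, 0.35. Itgam had 34, 34 and 15 counts and did not pass. Trem2, a receptor that signals through Tyrobp, was at 0 in all libraries, as were the basophil and mast cell genes Mcpt8 and Fcer1a. Their part in the rise of Tyrobp and Fcer1g was not tested.

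Other lineages followed other orders. For comparison, 45.7% of all genes tested passed with all libraries, 33.8% without library 1 and 21.3% without library 3. The CD8 genes, of which 2 of 2 passed (1 without library 1), were highest in library 3, with 2, 23 and 48 counts for Cd8a and 75, 179 and 147 for Cd8b1. The Cd8b1 level in library 2, 11.4 TPM, was close to that in library 3, 12.4 TPM. All 7 B and plasma cell genes passed (4 without library 1), 5 with library 3 and 2 with library 2 highest, and their summed level was 462, 725 and 910 TPM. Ighm, the most abundant of them, was lowest in library 2, at 395, 353 and 426 TPM. All 5 erythroid genes passed with library 3 highest, at 4.83, 51.2 and 286 TPM in sum. The innate lymphoid list had 3 of 5 tested genes passing (1 without library 3). Of these, Tmem176a and Tmem176b were highest in library 3 and Cxcr6 in library 2. Of the gamma-delta and innate-like list, 2 of 4 tested genes passed (1 without library 3), Tcrg-C1 and Tcrg-C2, both with library 2 highest, and the NKT cell factor Zbtb16 was at 0 in all libraries. The part of these cells in the receptor levels was not tested.

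Downstream of the receptors, Syk was low and Zap70 abundant. Syk, which NK, myeloid and B cells use with Tyrobp and Fcer1g, had 5, 41 and 47 counts and passed (adjusted p = 2.67e-07, Poisson chi-square). Zap70, the T cell relative, stood at 227, 228 and 208 TPM, and the T cell kinase gene Lck at 1157, 1152 and 1001 TPM. Of the 20 adaptor and signalling genes, 18 were tested and 12 passed, 8 with library 2 highest (7 passed without library 3). Over all genes tested, 45.7% passed, and 21.3% without library 3. The median difference of library 2 from the others over the 18 was 0.13. The SLAM adaptors of NK cells Sh2d1b1 and Sh2d1b2 had 0 to 3 counts in each library, while Sh2d1a, their T cell relative, stood at 264, 323 and 293 TPM.

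Ligands of the receptors were present in the same RNA. H2-T23, the ligand of CD94/NKG2A, stood at 698, 788 and 831 TPM. Tnfrsf14, the ligand of Cd160, stood at 8.61, 8.09 and 8.45 TPM and did not pass (Poisson chi-square, adjusted p = 0.684). Of the NKG2D ligands, Ulbp1 stood at 18.7, 17.9 and 9.64 TPM and passed (adjusted p = 3.00e-07), and H60b stood at 5.30, 5.30 and 5.90 TPM and did not. In all, 7 of the 10 ligand genes were tested and 3 passed, 2 with library 2 and 1 with library 3 highest. This is near the 45.7% that passed over all genes tested.

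Within a library, partner genes stood in very different ratios. On log2(TPM + 0.1), Hcst exceeded Klrk1 by 7.41 ± 0.048 (SD, n = 3). In the whole-number tables, as CPM, the SD of this difference was 0.389. Hcst exceeded Tyrobp by 7.94, 5.19 and 6.87 in libraries 1, 2 and 3, and Cd247 exceeded Fcer1g by 8.48, 5.10 and 6.14. Klrd1 minus Klrc1 was -0.06, 0.70 and -1.74, so neither chain of the NKG2A receptor was in excess in all libraries. Klrk1 minus Tyrobp also changed sign, at 0.57, -2.21 and -0.60. Fcer1g minus Ncr1 was 0.14, 4.58 and 3.62, and Tyrobp minus Fcer1g was 1.34, 0.48 and 0.30. Tnfrsf14 minus Cd160 was -2.44 ± 0.40, and H2-T23 exceeded Klrd1 by 7.74 ± 0.67. The sign was the same in all 3 libraries for 10 of the 12 pairs. The smallest p that the exact sign-flip permutation test can give with 3 libraries is 0.25, so no pair could pass.

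Genes with the most similar patterns over the 3 libraries were listed for the receptors and for each adaptor. Likeness was the Euclidean distance between centred log2 CPM values, among the 9373 genes averaging at least 50 counts. The median over the tested receptors was -0.37, 0.08 and 0.04 in libraries 1, 2 and 3, over receptors with different highest libraries. Its 8 nearest genes were Smim3, Gas8, Ube2o, Lin52, Evi5l, Mipol1, Pls3 and Mfsd6. The nearest to Tyrobp were Ccl5 (distance 0.30), Dnase1l3 (0.31), Heatr9, St3gal6 and Ctsh. The nearest to Fcer1g were Ctsh (0.33), Tm6sf1 (0.34), Heatr9, St3gal6 and Samd3. Thus 3 of the 5 nearest genes, Heatr9, St3gal6 and Ctsh, were shared by both adaptors. With 3 libraries many genes have close patterns, so these names are a description only.

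On chromosome 6, 5 of the receptors lie within 900489 bases, and Klre1, Klrd1, Klrk1 and Klrc1 lie within 101069 bases. Neighbours in this stretch did not have the same library highest. In TMM-scaled CPM, Klre1, Klrd1 and Klrk1 were highest in library 2, with only Klrd1 passing the test, and Klrc1 and Klrb1c were highest in library 3. Klre1 had only 1, 3 and 1 counts, and Klrk1 in TPM was highest in library 3.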

How the data were processed

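Polyadenylated RNA of 3 technical libraries of 1 biological replicate was measured. Estimated counts per gene and transcript were deposited in the column layout of RSEM, on mm10 and GENCODE M21, per the file headers and the deposited description of each file. The authors' TPM values are scaled for length over all entries, the percent column is each transcript's share of its gene's TPM, and the posterior SD is a signal in reads of how uncertain a deposited count is, per the file headers. A separate deposited table holds whole-number counts of genes of GENCODE M4, with lower totals of 2988262, 3386154 and 2734873 in libraries 1, 2 and 3. The aligner, tool versions and strand setting are not stated, so reads of overlapping genes cannot be told apart.

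Estimated counts were rounded. With 1 group, edgeR's quasi-likelihood test had no contrast, and each gene with a mean count of 10 or more was tested between libraries by a Poisson chi-square test of homogeneity. Expected shares came from TMM sizes (edgeR 4.0.16, R 4.3.3), with factors of 0.995, 0.976 and 1.03, from the tested genes. A gene passed at a Benjamini-Hochberg adjusted p under 0.05 over all genes tested. The test treats reads as independent, so it passes more genes than molecule counts would allow. Intervals are exact at 95% (Clopper-Pearson on the split of counts) and cover counting error only. CPM was log2-transformed after adding 0.5, and TPM after adding 0.1, which understates differences of low genes. A gene at 0 is compatible with up to 3 counts (0.254, 0.212 and 0.281 CPM in libraries 1, 2 and 3).

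The members and lists were chosen with earlier results of these data known. The rule for named genes takes the 9 members, the genes of 12 pairs, the most abundant and most variable genes of each list with defining markers at 0, and the nearest genes, and the text gives some of those from each list. Fcgr3, S1pr5, Klrc2, Klri1, Klri2, Sh2d1b1 and Sh2d1b2 were named for their role after their values were seen. List genes also outside the rule, and named with their values known, were Foxp3, Klrc3, Itga2, Itgam, Adgre1, Aif1, Mpeg1, S100a8, Syk, Zap70, Sh2d1a and H60b. Of 139 list genes, 138 had an entry. The test was checked on simulated counts. Alternatives were other scalings (DESeq2 1.42.0, total counts), count minimums, the whole-number tables, posterior variance and each library left out.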

Additional observations from a re-analysis of the deposited data

How the results depend on the processing

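All 9 members kept their highest library under DESeq2 size factors and in the whole-number tables, and 8 under total counts, where Klrk1, which did not pass, changed. In the whole-number tables Klre1 had 0, 1 and 0 counts, Klrb1c 3, 1 and 4, and Ncr1 4, 3 and 2. Their highest library there rests on too few reads to count as agreement. The number of members that passed stayed at 6 under DESeq2 size factors, total counts, a mean count of 1 or more and added posterior variance, where 45.7%, 46.1%, 30.2% and 40.7% of all genes tested passed. With a mean count of 30 or more, which leaves 4 of them to test, 3 passed, 2 with library 2 and 1 with library 3 highest (50.1% of all genes). By the whole-number counts, 1 passed with library 3 highest. Without 1 library, between 3 and 5 passed, the fewest without library 2, where Klrd1 and Tyrobp no longer passed. Fcer1g could not be tested without library 2, nor Klrb1c without library 3. Each reached the mean count of 10 only with the library where it was highest. Of all genes 33.8%, 30.7% and 21.3% passed without library 1, 2 and 3. The difference of library 2 from the others for Klrc1 changed sign to 0.21 in the whole-number tables and, with 1 library left out, ranged from -0.73 to 0.47, the latter without library 3. Of the pairs, Klrk1 minus Klrd1 changed sign to 0.41 and Klrk1 minus Tyrobp to 0.62 without length adjustment, the latter also to 0.042 in the whole-number tables, and Klrd1 minus Klrc1 ranged from -0.90 to 0.32 with 1 library left out, positive without library 3. With a mean count of 200 or more, 2 of the 8 genes nearest the receptors were shared. In the whole-number tables, which hold fewer counts, 6 of the adaptor and signalling genes, 3 erythroid genes and 0 of the gamma-delta and innate-like list passed. There 21.5% of all genes tested passed. The transcript shares of members other than Cd160 rest on few reads: by the posterior mean, Tyrobp-201 took 46.4% and not all of its gene. Depth limits what can be said of Klre1 and Ncr1, which no setting with 10 or more counts could test. No paired analysis was possible because there is 1 group. Those causes were not tested.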
